A study of Mus musculus with 12 samples.

Results

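The mouse genome's Kcn genes encode the pores, accessory subunits and modifiers of potassium channels, and 89 of the 18050 genes in the deposited table had a symbol starting with Kcn. Of these, 88 encode a channel subunit or an accessory protein. The other, Kcnrg, encodes a regulator and was not tested for lack of counts. RNA was sequenced from the left ventricle of wild type mice, 7 days after either myocardial infarction (MI) or a sham operation, in 6 libraries of each group. No strain, age or sex is given, the labels do not say how the infarct was made or which zone of the ventricle was taken, and all groups share the wild type genotype. Replicates 1 and 2 of each group form a first set and replicates 3 to 6 a second set, because the submitters' processing notes differ between them. Nothing in the labels says that libraries came from separate animals, so the p-values here reflect the spread from library to library alone, and that spread may be technical.

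Potassium channels set the resting potential of a heart muscle cell and end its action potential. In mouse ventricle repolarisation is fast and rests mainly on the transient outward current, carried by Kv4 pores with their KChIP2 partner, and on delayed rectifier currents of other Kv pores, while inward rectifier (Kir) channels hold the resting potential. Other members of the same gene family act in other cells of an injured heart: the calcium-activated KCa3.1 channel is known from macrophages, T cells and fibroblasts, and Kir6.1 from vascular smooth muscle and pericytes. Loss of repolarising potassium currents is a well known feature of the infarcted and failing heart.

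Total expected counts per library ran from 15541334 to 16066681 in sham and from 18546662 to 18602226 in MI libraries of the first set, and from 9140353 to 9750764 in sham and from 14168412 to 14410783 in MI libraries of the second set. Libraries of the second set lay very close together, with a biological coefficient of variation of 0.0293 for sham and 0.0208 for MI. In the first set it was 0.112 for sham and 0.192 for MI. A gene was therefore said to have risen or fallen only where 2 edgeR tests both gave a Benjamini-Hochberg adjusted p under 0.05, namely the test over 12 libraries and a test in which replicates 3 to 6 were summed and counted once per group. MI libraries 3 to 6 stood apart from the other 8 in 2 respects. The genes Hbb-bs and Hbb-bt made up 0.0596% to 0.194% of their adult beta-globin counts, against at least 99.9% elsewhere, and lung epithelium markers summed to 178.6 to 183.0 CPM there, against at most 2.84 CPM elsewhere. The Hbb genes differ between laboratory mouse strains. The part of either in the results was not tested.

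Most repolarising channel genes of heart muscle were lower after MI, and several channel genes known from immune cells and fibroblasts were higher. Of 55 Kcn genes tested, 23 fell (41.8%) and 13 rose (23.6%), beside a background over all genes tested of 29.8% lower and 28.1% higher. The share that rose was thus near but below the background, and the share that fell was above it. By the 12-library test alone 27 of the 55 were lower and 15 higher (background 38% and 37.9%). By the test counting replicates 3 to 6 once 24 of 58 were lower and 13 higher (background 29.5% and 28.2%). By both tests 19 were not called. The other 34 had too few counts for the 12-library test and count as not tested, none with a group mean above 1.34 CPM. Some of these had enough counts for other fits. The median log2 fold change of the tested Kcn genes was -0.55, beside 0.014 over all genes. Sham and MI libraries did not overlap in 19 of the 23 genes that fell and 10 of the 13 that rose. Over all genes tested this held for 2817 of the 4055 called lower and 2767 of the 3824 called higher. Each set was also tested alone: 27 of 62 Kcn genes were lower and 17 higher in replicates 1 and 2 (background 32.9% and 34.1%), and 30 of 52 were lower and 16 higher in replicates 3 to 6 (background 39.5% and 42.2%). All 35 called genes with a value in both sets had the same sign in both, and 34 of them, Kcnj10 being the exception, changed more in the first set.

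The genes were then grouped by function. Among the 13 cardiac repolarising pore genes, 12 fell and none rose, with a median log2 fold change of -2.13 (-3.00 in the first set, -1.64 in the second). Of 9 tested immune or fibroblast channel genes, 6 rose and 1 fell, with a median of 1.24. Both tested silent modifiers fell, cardiac accessory genes split into 2 risen and 2 fallen of 5 tested, and 1 of 5 vascular genes fell. These groups were drawn up with earlier results of these data known, so their counts describe the genes and do not test the grouping. In such bulk tissue, fewer cells of a type and less RNA per cell cannot be told apart.

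The plot of fold changes by set places every gene tested in both.

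**Figure D1:**
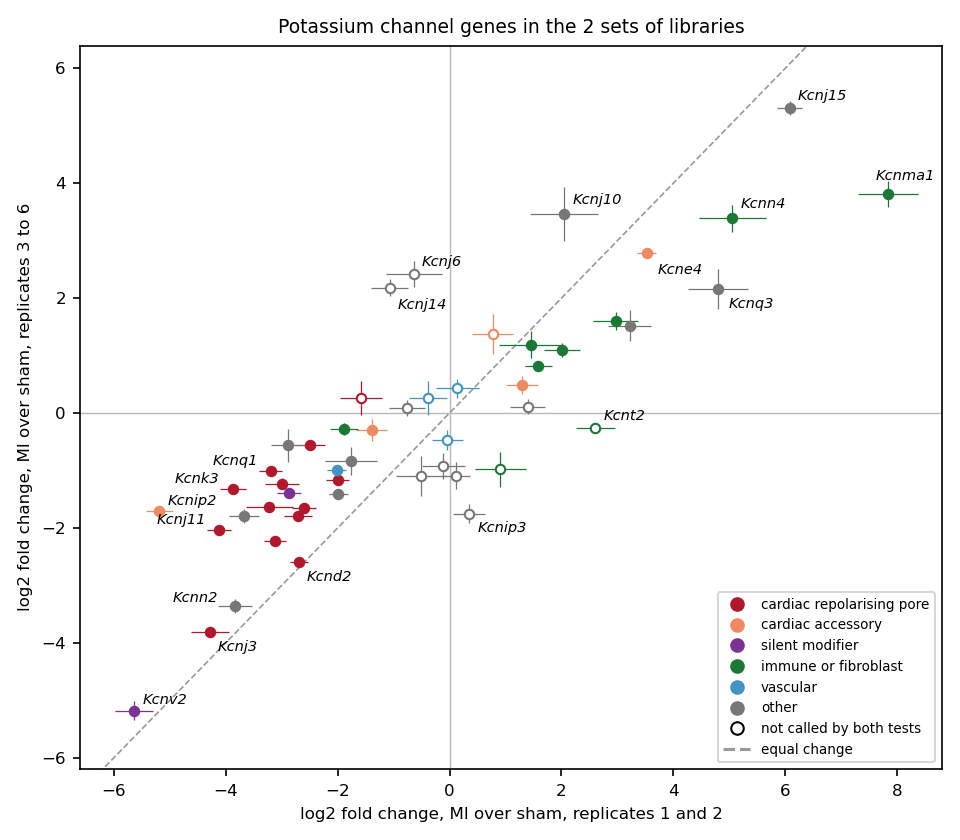
Each point is a Kcn gene, with its log2 fold change of MI over sham in replicates 1 and 2 on the horizontal axis and in replicates 3 to 6 on the vertical axis, coloured by role; bars are standard errors, open points were not called by both tests, and the dashed line marks equal change. Genes that fell sit above the dashed line, with the larger fall in replicates 1 and 2, and Kcnd2 lies near it at -2.70 and -2.59.

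Promoters of 4 genes are shown, 2 for genes that fell (Kcnd2 and its partner Kcnip2) and 2 for genes that rose (Kcne4 and Kcnj15). RefSeq promoters on build GRCm38.p6, from 250 bases before to 50 bases after an annotated start, were found for 65 of the 89 Kcn genes, 90 promoters in all. Each is written 5′ to 3′ along the gene's strand, with CG dinucleotides in capitals. The Kcnd2 promoter lies at chr6:21215096-21215395 on the plus strand, Kcnip2 at chr19:45816014-45816313 on the minus strand, Kcne4 at chr1:78816661-78816960 on the plus strand and Kcnj15 at chr16:95257308-95257607 on the plus strand.
Kcnd2: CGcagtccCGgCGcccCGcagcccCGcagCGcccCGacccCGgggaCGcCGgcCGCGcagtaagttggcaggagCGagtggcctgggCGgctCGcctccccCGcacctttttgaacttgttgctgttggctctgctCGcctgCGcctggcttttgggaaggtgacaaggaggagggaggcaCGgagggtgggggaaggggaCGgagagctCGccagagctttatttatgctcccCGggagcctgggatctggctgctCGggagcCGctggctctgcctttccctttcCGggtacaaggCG
Kcnip2: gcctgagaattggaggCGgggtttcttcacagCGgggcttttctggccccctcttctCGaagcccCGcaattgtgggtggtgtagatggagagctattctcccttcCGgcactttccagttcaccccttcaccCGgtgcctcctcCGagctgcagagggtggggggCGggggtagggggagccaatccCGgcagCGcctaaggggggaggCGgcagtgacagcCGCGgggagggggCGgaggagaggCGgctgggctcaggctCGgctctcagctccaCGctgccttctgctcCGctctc
Kcne4: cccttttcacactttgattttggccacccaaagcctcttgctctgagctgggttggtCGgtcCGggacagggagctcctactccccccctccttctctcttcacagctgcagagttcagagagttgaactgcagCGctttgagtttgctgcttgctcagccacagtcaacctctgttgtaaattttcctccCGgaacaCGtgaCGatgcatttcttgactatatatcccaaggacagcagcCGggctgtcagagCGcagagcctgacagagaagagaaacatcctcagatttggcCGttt
Kcnj15: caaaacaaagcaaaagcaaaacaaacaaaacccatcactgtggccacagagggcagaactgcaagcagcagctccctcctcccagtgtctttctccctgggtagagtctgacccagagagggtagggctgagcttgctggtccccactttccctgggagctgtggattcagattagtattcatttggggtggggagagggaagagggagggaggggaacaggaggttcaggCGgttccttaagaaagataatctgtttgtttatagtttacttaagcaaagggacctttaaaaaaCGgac
CG dinucleotides numbered 26 in the Kcnd2 promoter, 18 in Kcnip2, 9 in Kcne4 and 2 in Kcnj15. The median was 7 over all 32851 RefSeq promoters and 9 over the 90 Kcn promoters. It was 13 over the 17 promoters found for 13 genes that fell and 7 over the 15 found for 10 genes that rose. The ranges overlapped widely, at 3 to 33 in fallen and 1 to 36 in risen genes. The hexamer CACGTG, which reads the same on both strands, occurred in 7.15% of all promoters. It was present in 7 of the 90 Kcn promoters, 4 of them of risen genes (Kcnab1, Kcne4 and Kcnn4) and 1 of a fallen gene (Kcnj2). TGANTCA, searched on both strands, was held by 7.81% of all promoters and by 4 Kcn promoters, among called genes 1 each of Kcne3 and Kcnk2. CATTCC, also searched on both strands, occurred in 14.7% of all promoters and in 13 Kcn promoters, among called genes 1 each of Kcnk13, Kcnn4, Kcna5 and Kcnk2. These are matches of letters in a window and say nothing of binding.

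The pores of the fast transient outward current fell in both sets. Kcnd2, which encodes Kv4.2 (gene ID 16508, chromosome 6, 21215346 to 21729805 on GRCm38), stood at 34.9 and 30.8 CPM in the sham libraries of the first set and 5.15 and 5.04 CPM after MI. In the second set it gave 31.4, 31.6, 31.9 and 32.7 CPM in sham and 5.02, 4.86, 5.35 and 5.15 CPM after MI. The groups did not overlap, and both sets gave nearly the same levels. It fell by 2.66 on the log2 scale (SE 0.06, adjusted p 8.67e-12 over 12 libraries and 0.000517 counted once). Kcnd3, which encodes Kv4.3, ran at 12.9 and 8.75 CPM in sham and 1.35 and 1.39 CPM in MI of the first set, and at 13.2, 12.9, 12.2 and 12.3 CPM in sham and 4.84, 5.29, 5.41 and 5.33 CPM in MI of the second. Every sham library was above every MI library, and MI libraries of the first set were the lowest. On the log2 scale Kcnd3 fell by 1.79 (SE 0.25, adjusted p 4.07e-05 and 0.00544). Per transcript length, on the deposited TPM scale, the Kcnd3 to Kcnd2 ratio went from 0.246 (0.219 to 0.273) in sham to 0.511 (0.387 to 0.635) in MI in the first set, and from 0.298 (0.284 to 0.317) to 0.772 (0.718 to 0.829) in the second. The read counts agreed in the second set alone, where the CPM ratio went from 0.397 (0.376 to 0.422) to 1.02 (0.964 to 1.09). In the first set the CPM ratio went the other way, from 0.327 (0.284 to 0.371) to 0.268 (0.262 to 0.275), and deposited TPM of Kcnd2 after MI varied there (0.87 ± 0.339, SD) where its CPM did not. No direction can be given for the first set.

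Kcnip2 encodes KChIP2, the calcium-binding subunit that Kv4 pores need for full current density. It stood at 531.9 and 587.7 CPM in sham and 18.6 and 12.4 CPM in MI of the first set, and at 183.2, 187.5, 173.6 and 166.9 CPM and 50.6, 54.0, 51.4 and 53.4 CPM in the second. Sham and MI did not overlap, yet sham libraries of the first set were far above those of the second while MI libraries were below them. Over 12 libraries it fell by 2.78 (SE 0.53, adjusted p 0.000408 and 0.00776), which averages log2 fold changes of -5.19 in the first set and -1.71 in the second. Without MI library 1 the call was lost. The set difference was 3.41 (adjusted p 1.02e-09 and 0.0141). Relative to its pores, the TPM ratio of Kcnip2 to Kcnd2 plus Kcnd3 went from 33.6 (29.1 to 38.2) to 13.6 (8.43 to 18.7) in the first set and from 11.2 (10.4 to 11.7) to 15.1 (14.2 to 15.8) in the second, in opposite directions.

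Kcna4, which encodes the pore of the slow transient outward current, was the 1 repolarising pore gene not called. It had 2.74 ± 0.32 CPM (SD) in sham and 0.923 ± 0.26 CPM in MI of the first set, and 1.11 ± 0.378 and 1.29 ± 0.181 CPM in the second. Its log2 fold change was -0.48 (adjusted p 0.195 and 0.137).

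The plot of fallen genes by library shows these values and those of the delayed and inward rectifiers.

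**Figure D2:**
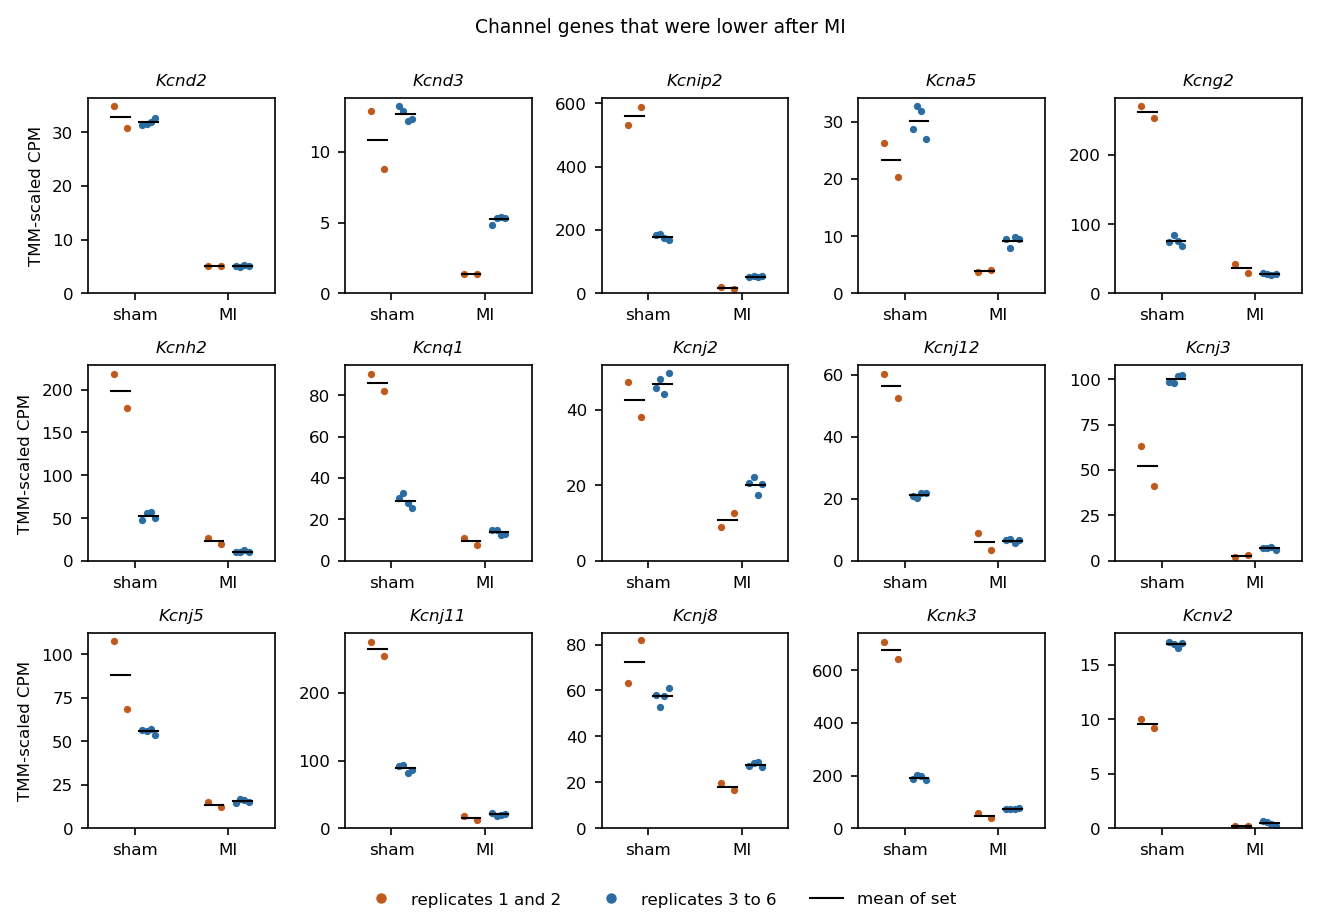
Each panel gives TMM-scaled CPM (linear axis from 0) of 1 gene in 6 sham and 6 MI libraries, with replicates 1 and 2 in orange, replicates 3 to 6 in blue and a bar for the mean of each set. Sham and MI libraries do not overlap in any of the 15 panels; in Kcng2 sham libraries start at 67.7 and MI libraries end at 43.0 CPM.

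Delayed rectifier genes were lower too. Kcna5, which encodes Kv1.5, had 26.2 and 20.4 CPM in sham and 3.71 and 4.07 CPM in MI libraries of the first set. Its second set gave 28.7, 32.7, 31.9 and 26.9 CPM in sham and 9.44, 7.93, 9.85 and 9.51 CPM in MI. No MI library reached the lowest sham library, and the log2 level fell by 1.99 (SE 0.15, adjusted p 1.83e-07 and 0.00145). Kcna1, which lies 100.9 kb from Kcna5 on chromosome 6 and encodes Kv1.1, fell by 1.18 (SE 0.26, adjusted p 0.0013 and 0.0287) from 3.12 ± 0.207 to 0.927 ± 0.526 CPM in the first set and from 2.71 ± 0.544 to 1.46 ± 0.418 CPM in the second. That call was lost with scaling by library size alone and without any 1 of the 4 libraries of the first set. A replicate block in the model and limma also lost it. Their neighbour Kcna6 was not called at -0.84 (adjusted p 0.0241 and 0.17).

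The silent modifiers, subunits that form no channel alone and join other Kv pores, held the largest fall among Kcn genes called. Kcnv2, which encodes Kv8.2, stood at 10 and 9.19 CPM in sham of the first set and 0.193 and 0.185 CPM in MI. The second set gave 17.1, 16.9, 16.6 and 17.0 CPM in sham and 0.666, 0.554, 0.365 and 0.182 CPM in MI. All 6 MI libraries had at most 0.666 CPM, and the gene fell by 5.33 on the log2 scale (SE 0.19, adjusted p 4.75e-10 and 0.000492), at -5.64 in the first set and -5.18 in the second. It reached the level of the filter on low counts in 6 sham libraries and 1 MI library, so it was tested through its sham level. Kcng2, which encodes Kv6.2, had 270.1 and 252.8 CPM in sham and 43.0 and 29.6 CPM in MI of the first set, and 74.6, 83.7, 75.6 and 67.7 CPM and 28.8, 27.3, 26.8 and 28.5 CPM in the second. Groups were fully apart, and it fell by 1.91 (SE 0.22, adjusted p 7.48e-06 and 0.00279). The other 7 silent modifier genes had too few counts for the 12-library test. In the first set alone Kcng3 was higher by 1.74 (edgeR adjusted p 0.0331), which was not called with replicates 3 to 6 counted once (adjusted p 0.224). Kcng4 at 0.09 (adjusted p 0.873) and Kcns1 at 1.10 (adjusted p 0.0919) were not called in the first set.

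Genes of the slow and rapid delayed rectifiers, which are minor currents in adult mouse ventricle and major ones in human heart, fell as well. Kcnh2, which encodes the pore of the rapid current (ERG1), stood at 218.0 and 178.9 CPM in sham and 26.2 and 20.0 CPM in MI of the first set. Its values in the second were 47.5, 56.2, 57.1 and 50.4 CPM in sham and 10.7, 10.3, 12.5 and 10 CPM in MI. The groups were apart, and it fell by 2.57 (SE 0.15, adjusted p 2.4e-08 and 0.00099). Kcnq1, the pore gene of the slow current, had 90.2 and 81.8 CPM in sham and 11.2 and 7.72 CPM in MI of the first set, and 30.4, 32.5, 28.0 and 25.3 CPM and 15, 15.1, 12.7 and 12.8 CPM in the second. It fell by 1.77 (SE 0.32, adjusted p 0.000312 and 0.00678), with a set difference of 2.12 (adjusted p 5.78e-07 and 0.0236). The antisense transcript Kcnq1ot1 covers 2.96% of the exon bases of Kcnq1, and the strand setting of the counts is not stated in any source used.

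The KCNE subunits that join these pores did not move together. Kcne1, the partner of Kcnq1 in the slow current, had 6.85 and 6.89 CPM in sham and 3.08 and 2.22 CPM in MI of the first set, and 2.81, 2.98, 3.35 and 3.98 CPM and 2.84, 2.09, 3.16 and 2.24 CPM in the second, where the groups overlapped. It fell by 0.73 (SE 0.21, adjusted p 0.00753 and 0.0336), which was not called in the second set alone or with library-size scaling, or without any 1 of the 4 libraries of the first set. The call was also lost with limma, with no set in the model and with a replicate block. Kcne4, an inhibitory partner of Kcnq1 and of Kv1 pores (gene ID 57814, chromosome 1, 78816911 to 78820032), stood at 5.48 and 4.37 CPM in sham and 53.9 and 61.5 CPM in MI of the first set, and at 5.62, 5.84, 5.26 and 5.31 CPM and 36.1, 37.1, 39.0 and 35.3 CPM in the second. Every MI library had at least 35.3 CPM and no sham library more than 5.84 CPM. The log2 rise was 3.03 (SE 0.14, adjusted p 2.52e-09 and 0.000789). On the TPM scale the Kcne4 to Kcnq1 ratio went from 0.0646 (0.0604 to 0.0689) to 7.3 (5.48 to 9.12) in the first set and from 0.203 (0.191 to 0.223) to 2.85 (2.57 to 3.28) in the second, so that Kcne4 passed Kcnq1 in each MI library. Kcne1l, listed under its older symbol, had a log2 fold change of 1.05 and was not called (adjusted p 0.000352 and 0.0536), and Kcne2 was not tested. Kcnab1, a cytoplasmic beta subunit of Kv1 channels, had 1.9 and 1.85 CPM in sham and 4.33 and 5.04 CPM in MI of the first set, and 2.69, 2.86, 4.54 and 4.95 CPM and 4.96, 4.8, 5.29 and 5.33 CPM in the second. Here the groups overlapped, and the rise of 0.72 (SE 0.20, adjusted p 0.00523 and 0.0331) was lost without any 1 of the 4 libraries of the first set. No set in the model and a replicate block lost that call as well.

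The strong inward rectifiers, which hold the resting potential near the potassium equilibrium, were lower in MI. Kcnj2, which encodes Kir2.1, had 47.3 and 38.0 CPM in sham and 9.0 and 12.6 CPM in MI of the first set. In the second set it had 45.8, 48.1, 44.1 and 49.7 CPM in sham and 20.5, 22.1, 17.4 and 20.4 CPM in MI. The groups did not overlap, and it fell by 1.47 (SE 0.14, adjusted p 1.39e-06 and 0.00233). Kcnj12, which encodes Kir2.2, had 60.1 and 52.3 CPM in sham and 8.9 and 3.33 CPM in MI of the first set, and 21.0, 20.1, 21.8 and 21.8 CPM and 6.59, 6.89, 5.84 and 6.85 CPM in the second. Again without overlap, it fell by 2.22 (SE 0.28, adjusted p 1.58e-05 and 0.00516). The TPM ratio of Kcnj12 to Kcnj2 went from 0.587 (0.541 to 0.642) to 0.419 (0.397 to 0.435) in the second set, and from 1.65 (1.59 to 1.71) to 0.795 (0.345 to 1.25) in the first.

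The acetylcholine-gated channel, known best from atrium and pacemaker cells and formed of a pair of Kir3 subunits, had lower transcript levels of both. Kcnj3, which encodes Kir3.1 (gene ID 16519, chromosome 2, 55411798 to 55598145), stood at 63.0 and 41.3 CPM in sham and 1.93 and 3.42 CPM in MI of the first set. The second set held 98.3, 98.1, 101.8 and 102.5 CPM in sham and 6.84, 7.07, 7.66 and 6.0 CPM in MI. MI libraries lay far below sham in both sets, and the gene fell by 3.99 (SE 0.15, adjusted p 6.05e-10 and 0.000789). An antisense transcript, Gm26794, overlaps 31.1% of its exon bases, so part of the reads may not be its own. Kcnj5, which encodes Kir3.4, had 107.6 and 68.4 CPM in sham and 15.1 and 12.1 CPM in MI of the first set, and 56.3, 56.1, 57.2 and 53.7 CPM and 14.8, 16.8, 16.0 and 15 CPM in the second. It fell by 2.13 (SE 0.16, adjusted p 1.82e-07 and 0.00162), with no overlap. The TPM ratio of Kcnj3 to Kcnj5 was lower in MI in both sets, at 0.561 (0.534 to 0.588) and then 0.196 (0.112 to 0.281) in the first and 2.1 (2.02 to 2.22) and then 0.519 (0.47 to 0.562) in the second. Among atrial markers Bmp10 was at 0 in sham of the first set and in MI of the second, and of the 3 atrial markers tested 1 fell and none rose. Their summed level, 1795.0 to 2496.0 CPM in sham and 3711.1 to 6977.6 CPM in MI of the first set and 161.4 to 197.2 and 4954.0 to 5093.5 CPM in the second, is made almost wholly of Nppa. The part of atrial tissue in the Kcnj3 result was not tested.

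ATP-sensitive channels, which open when cell energy is low, join a Kir6 pore with a sulfonylurea receptor. Kcnj11, which encodes the Kir6.2 pore of heart muscle, had 275.6 and 255.3 CPM in sham and 18.5 and 12.4 CPM in MI of the first set. Values in the second were 92.4, 94.0, 82.0 and 85.6 CPM in sham and 22.4, 18.8, 20.3 and 21.8 CPM in MI. Groups were apart. It fell by 2.75 (SE 0.31, adjusted p 6.29e-06 and 0.0026), and the change differed between sets by 2.01 (adjusted p 3.19e-07 and 0.0278). Kcnj8, which encodes the Kir6.1 pore of vascular cells, had 63.4 and 81.8 CPM in sham and 19.6 and 16.6 CPM in MI of the first set, and 58.2, 52.7, 57.5 and 61.2 CPM and 27.0, 28.6, 28.8 and 26.6 CPM in the second. It fell by 1.37 (SE 0.15, adjusted p 5.31e-06 and 0.00274) and was the 1 vascular member to do so. The Kcnj11 to Kcnj8 TPM ratio dropped from 3.1 (2.59 to 3.6) to 0.7 (0.611 to 0.79) in the first set and from 1.39 (1.26 to 1.6) to 0.666 (0.589 to 0.737) in the second. Of the receptor genes, Abcc9 (SUR2) fell by 2.20 and Abcc8 (SUR1) by 1.67.

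**Figure D3:**
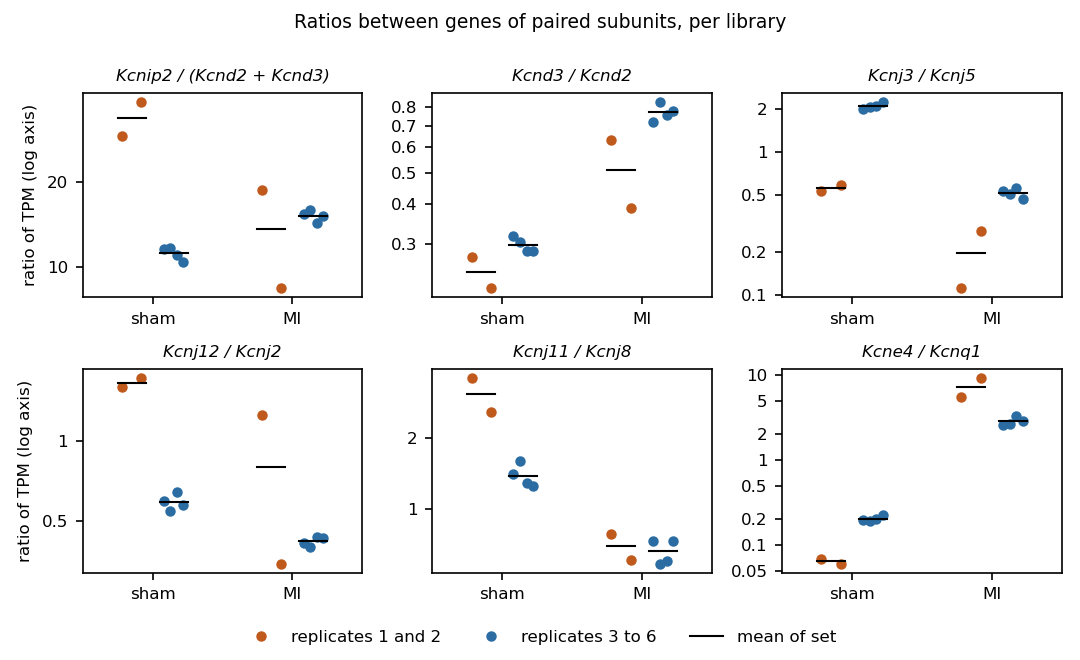
Each panel gives the ratio of deposited TPM (log axis) between genes of paired subunits in each sham and MI library, with replicates 1 and 2 in orange, replicates 3 to 6 in blue and a bar for the mean of each set. Kcne4 over Kcnq1 is higher in MI in both sets, Kcnd3 over Kcnd2 is higher in TPM in both but by read counts (CPM) lower in the first set, Kcnj3 over Kcnj5, Kcnj12 over Kcnj2 and Kcnj11 over Kcnj8 are lower in both, and Kcnip2 over its pores goes from 33.6 to 13.6 in the first set and from 11.2 to 15.1 in the second.

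Kcnk3, which encodes the background channel TASK-1, was among the most abundant Kcn genes of sham ventricle. It stood at 708.2 and 643.3 CPM in sham and 56.2 and 37.2 CPM in MI of the first set, and at 185.8, 202.1, 196.8 and 182.4 CPM and 72.5, 72.6, 74.8 and 76.3 CPM in the second. Without overlap between groups, it fell by 2.16 (SE 0.38, adjusted p 0.000233 and 0.00669), with log2 fold changes of -3.87 in the first set and -1.32 in the second, a difference of 2.48 (adjusted p 2.94e-08 and 0.0221). Kcnk2, which encodes the stretch-sensitive TREK-1 channel of cardiac fibroblasts and muscle cells, had 8.3 and 10.2 CPM in sham and 2.7 and 2.4 CPM in MI of the first set, and 14.9, 12.1, 9.92 and 11.8 CPM and 9.86, 9.59, 9.98 and 9.27 CPM in the second. In the second set the groups overlapped. It fell by 0.80 (SE 0.23, adjusted p 0.00756 and 0.0225), a call that was lost with library-size scaling and without any 1 of the 4 libraries of the first set. Limma and a model with no set lost that call too. On the other strand A430027H14Rik overlaps 12.2% of the exon bases of Kcnk2.

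Of the immune or fibroblast channels, 6 rose. Kcnma1, which encodes the large-conductance BK pore (gene ID 16531, chromosome 14, 23292288 to 24005110), had 0.0 and 0.0741 CPM in sham and 10.5 and 10.1 CPM in MI of the first set. The second set gave 0.234, 0.373, 0.717 and 0.724 CPM in sham and 7.56, 7.13, 6.39 and 7.21 CPM in MI. It passed the filter on low counts through the MI libraries alone. In summed counts it went from 1 to 438 in the first set, a depth-scaled ratio of 275 (95% exact interval 49.1 to 10887.7), and from 17 to 465 in the second, a ratio of 13.8 (8.55 to 23.9). Both intervals cover counting error only. The fitted log2 rise was 4.68 (SE 0.43, adjusted p 1.03e-06 and 0.0033), and its set difference was -4.03 (adjusted p 0.000632 and 0.0462). Kcnmb1, the BK beta subunit gene of smooth muscle, was not called at 0.31 (adjusted p 0.12 and 0.578), with 3.37 ± 0.999 and 3.77 ± 1.27 CPM (SD) in sham and MI of the first set and 3.45 ± 0.625 and 4.52 ± 0.491 CPM in the second.

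Kcnn4, which encodes the calcium-activated KCa3.1 channel of leukocytes and activated fibroblasts (gene ID 16534, chromosome 7, 24369826 to 24385212), had 0.685 and 0.741 CPM in sham and 13.6 and 34.9 CPM in MI of the first set. Sham libraries of the second set held 1.05, 0.373, 0.359 and 0.483 CPM and MI libraries 5.51, 5.9, 6.33 and 5.88 CPM. MI library 2 was well above every other, and no sham library exceeded 1.05 CPM. The level of the filter on low counts was reached in 1 sham library and 6 MI libraries. The rise was 4.19 on the log2 scale (SE 0.38, adjusted p 9.58e-07 and 0.00224). The other small and intermediate conductance genes went the other way or were not called. Kcnn1 (SK1) had 22.5 and 21.1 CPM in sham and 5.82 and 5.27 CPM in MI of the first set, and 15.2, 17.2, 15.4 and 16.3 CPM and 5.75, 5.54, 5.66 and 6.3 CPM in the second. It fell by 1.64 (SE 0.10, adjusted p 2.98e-08 and 0.00129), with no overlap. Kcnn2 (SK2) had 11.7 and 11.1 CPM in sham and 0.963 and 0.647 CPM in MI of the first set, and 13.9, 13.6, 13.3 and 14.7 CPM and 1.27, 1.29, 1.16 and 1.45 CPM in the second. It fell by 3.54 (SE 0.12, adjusted p 2.99e-10 and 0.000787), again with no overlap, while Kcnn3 (SK3) was not called at -0.02 (adjusted p 0.925 and 0.642).

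Of the other 3 K2P genes tested, the family of TASK-1 and TREK-1, 2 rose. Kcnk13, which encodes THIK-1 of microglia and macrophages, had 1.6 and 1.63 CPM in sham and 8.71 and 17.0 CPM in MI of the first set, and 2.69, 2.24, 1.91 and 1.93 CPM and 7.02, 5.9, 6.51 and 6.36 CPM in the second. All MI libraries exceeded all sham libraries, with a rise of 2.07 (SE 0.27, adjusted p 1.86e-05 and 0.00566). Kcnk6, which encodes TWIK-2 of macrophages, had 6.62 and 8.97 CPM in sham and 20.3 and 27.2 CPM in MI of the first set, and 9.36, 8.7, 9.08 and 7.48 CPM and 14.0, 14.4, 14.6 and 16.2 CPM in the second. Its rise was 1.07 (SE 0.16, adjusted p 5.27e-05 and 0.00819), also with no overlap. Kcnk5 (TASK-2) was not called at -0.27 (adjusted p 0.522 and 0.756). Its sets had opposite signs, at 0.91 in the first (edgeR adjusted p 0.122) and -0.98 in the second (adjusted p 0.00407).

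Accessory genes of this group rose as well. Kcnab2, a Kv beta subunit gene, had 6.7 and 8.08 CPM in sham and 21.5 and 39.0 CPM in MI of the first set, and 5.15, 6.47, 6.33 and 4.34 CPM and 12.9, 10.7, 11.6 and 10.8 CPM in the second. MI library 2 was again the highest and the groups did not overlap, for a rise of 1.42 (SE 0.21, adjusted p 5.84e-05 and 0.00757). Kcne3 rose by 1.24 (SE 0.22, adjusted p 0.000255 and 0.0417), from 0.525 ± 0.0964 to 1.47 ± 0.775 CPM (SD) in the first set and from 1.21 ± 0.235 to 2.66 ± 0.246 CPM in the second. That call was lost without sham library 1, sham library 2 or MI library 1, and with no filter on low counts. It was also lost with no set in the model, with a replicate block and in replicates 1 and 2 alone (edgeR adjusted p 0.0626). Kcnt2, which encodes the sodium-activated SLICK channel, went in opposite directions in the sets, from 2.19 ± 1.1 to 13.6 ± 0.551 CPM in the first and from 25.1 ± 1.29 to 20.2 ± 0.686 CPM in the second, and was not called (adjusted p 0.311 and 0.103). Kcna3, the Kv1.3 gene of T cells and macrophages, had 2 counts in sham and 20 in MI of the first set and 2 and 9 in the second, too few to be tested.

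**Figure D4:**
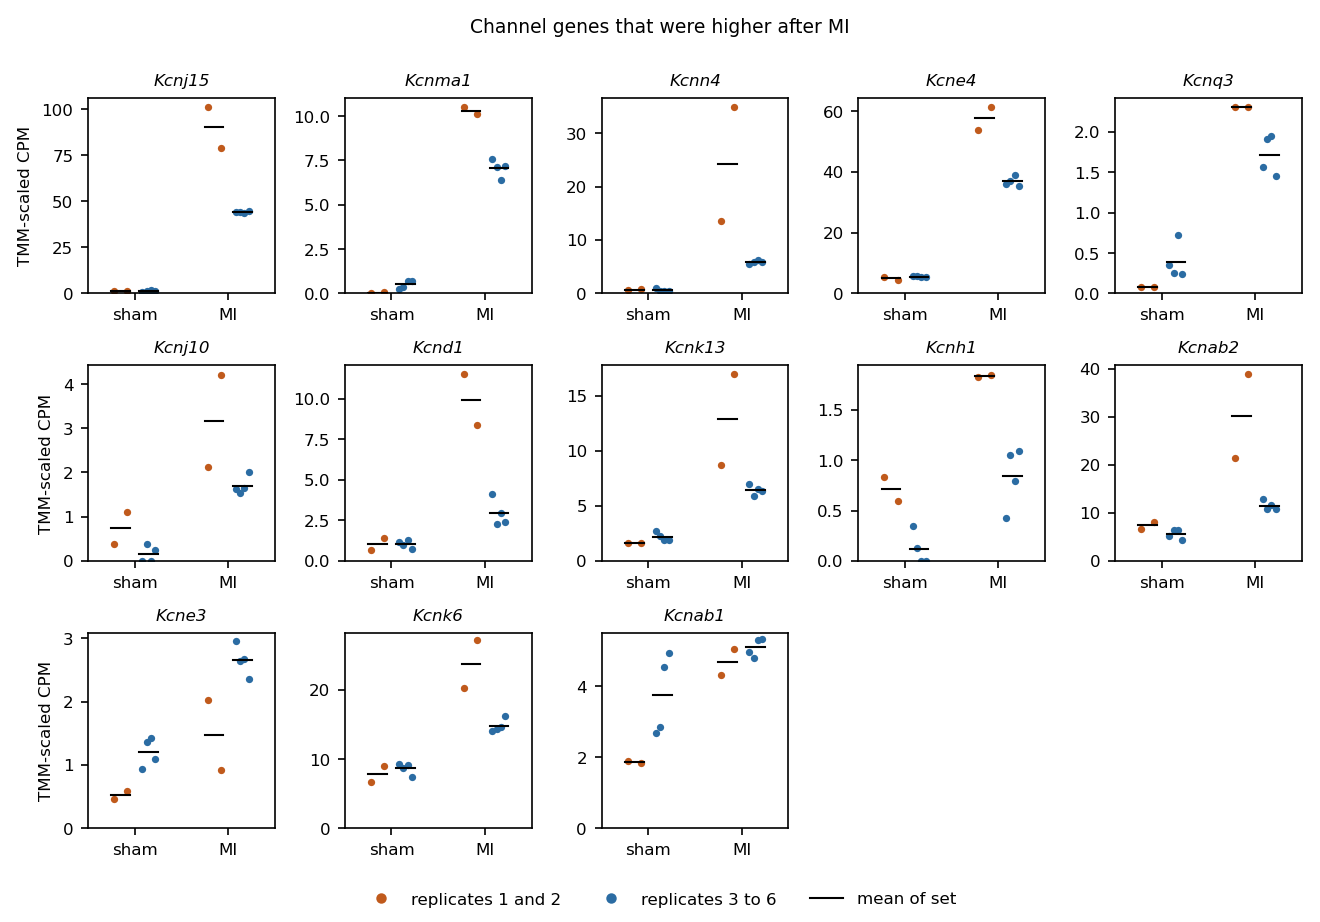
Each panel gives TMM-scaled CPM (linear axis from 0) of 1 of the 13 Kcn genes that rose, in 6 sham and 6 MI libraries, with replicates 1 and 2 in orange, replicates 3 to 6 in blue and a bar for the mean of each set. Kcnj15 goes from at most 1.67 CPM in sham to 43.7 CPM or more in MI, while sham and MI overlap in Kcne3, Kcnh1 and Kcnab1.

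The largest log2 rise of a Kcn gene over 12 libraries was outside these groups. Kcnj15, which encodes the inward rectifier Kir4.2 known from kidney and other epithelia (gene ID 16516, chromosome 16, 95257558 to 95300260), had 1.14 and 1.48 CPM in sham and 101.2 and 79.2 CPM in MI of the first set. Its second set had 0.468, 1.12, 1.67 and 1.33 CPM in sham and 44.1, 44.3, 43.7 and 45 CPM in MI. Sham libraries had at most 1.67 CPM, and the rise was 5.63 (SE 0.19, adjusted p 2.66e-10 and 0.000485). Both sets gave a large change, 6.08 and 5.31. By summed counts the ratio was 68.4 (95% exact interval 49.1 to 98.4) in the first set and 38.7 (28.1 to 54.8) in the second. Kcnj10, the Kir4.1 gene of glia, rose by 2.62 (SE 0.45, adjusted p 0.00018 and 0.0147) at low level, from 0.746 ± 0.517 to 3.16 ± 1.48 CPM (SD) in the first set and from 0.154 ± 0.185 to 1.7 ± 0.203 CPM in the second. Without sham library 2 its rise was 3.26, and the call was lost without sham library 1 or MI library 2, or with no set in the model. Kcnj10 reached the level of the filter on low counts in 1 sham library and 6 MI libraries.

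Smaller genes outside the main groups also moved. Kcnd1, which encodes Kv4.1, had 0.685 and 1.41 CPM in sham and 11.5 and 8.37 CPM in MI of the first set, and 1.17, 0.995, 1.31 and 0.724 CPM and 4.11, 2.28, 2.92 and 2.42 CPM in the second. Unlike Kcnd2 and Kcnd3 it rose, by 2.19 (SE 0.35, adjusted p 9.64e-05 and 0.00745), with no overlap. Kcnq3, the M-current gene of neurons, rose by 2.86 (SE 0.39, adjusted p 2.96e-05 and 0.00686) and passed the filter through the MI libraries alone, from 2 to 98 summed counts in the first set, a ratio of 30.8 (8.29 to 257.6), and from 13 to 113 in the second, a ratio of 4.4 (2.47 to 8.51). Kcnh1, the EAG1 gene, rose by 1.87 (SE 0.44, adjusted p 0.00188 and 0.0183). That call was lost without sham library 2, MI library 1 or MI library 2, or with no set in the model. The gene reached the level of the filter on low counts in 1 sham library and 5 MI libraries. In summed counts it went from 19 to 78 in the first set and from 4 to 55 in the second.

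Among the other genes that fell, Kcna7, a Kv1 pore gene of striated muscle, had 22.1 and 17.6 CPM in sham and 1.88 and 1.25 CPM in MI of the first set, and 14.4, 11.7, 11.7 and 12.3 CPM and 4.11, 3.69, 3.16 and 3.03 CPM in the second. It fell by 2.43 (SE 0.29, adjusted p 8.41e-06 and 0.00308), with no overlap. The vascular M-channel gene Kcnq5 was not called, at -0.19 (adjusted p 0.5 and 0.687). Nor were Kcnip4 at 0.50 (adjusted p 0.069 and 0.0834) and Kcnh6 at -0.23 (adjusted p 0.271 and 0.203).

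Summed over all Kcn genes, deposited TPM was 1227.0 ± 67.3 (SD) in sham and 387.0 ± 3.04 in MI of the first set, and 470.2 ± 13.9 and 329.2 ± 2.05 in the second. Kcnip2 ranked first in both sham sets, at 353.1 and 109.8 TPM, followed by Kcnk3 at 258.7 and 63.8 TPM. In MI of the first set Kcne4 (53.5 TPM) and Kcnj15 (43.4 TPM) ranked first and second, while in MI of the second set Kcnip2 (50.9 TPM) and Kcnk3 (38.6 TPM) stayed ahead of Kcne4 (29.4 TPM). The share of repolarising pores went from 50.3% ± 3.61 to 22.4% ± 3.89 in the first set and from 48.8% ± 0.645 to 31.7% ± 0.258 in the second. Immune or fibroblast channels went from 1.04% ± 0.127 to 22.1% ± 8.84 and from 3.62% ± 0.235 to 12.9% ± 0.275. These shares carry no test.

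**Figure D5:**
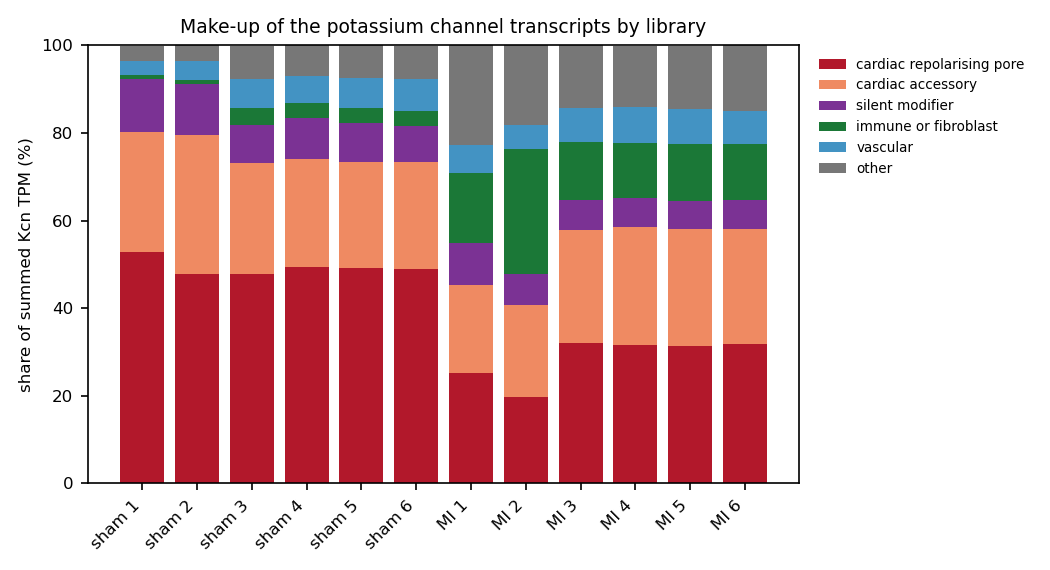
Stacked bars give the share of summed Kcn TPM (%, axis from 0 to 100) held by each functional group in each of 12 libraries. Repolarising pores hold 47.8% to 52.9% of sham libraries and 19.7% to 32.0% of MI libraries, and immune or fibroblast channels reach 28.4% in MI library 2.

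By both tests, size of change differed between the sets for 8 of 55 Kcn genes tested, a share near the background of 10.6% of all genes. Of these, 4 fell in both sets and fell less in replicates 3 to 6 (Kcnip2, Kcnk3, Kcnq1 and Kcnj11), and Kcnma1 had the smaller rise there, a difference that turns on 1 sham count in the first set and 17 in the second. Kcnj14 (Kir2.4, -1.07 in the first set and 2.18 in the second), Kcnip3 (0.35 and -1.75) and Kcnt2 (2.61 and -0.26) had opposite signs. The count rests on the first set: without sham library 1 or sham library 2 no Kcn gene passed both edgeR tests (17 and 21 did at an unadjusted p under 0.05), and without MI library 1 or MI library 2 the count was 20 and 15.

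Genes that work with these channels but carry other names mostly fell. Of 28 tested members of a list of partners and other excitability genes, 21 fell and 1 rose, beside 29.8% lower and 28.1% higher over all genes tested. This list too was drawn up with earlier results of these data known, so its count describes the genes listed. Scn4b, a sodium channel beta subunit, fell by 3.23, the pacemaker channel gene Hcn4 by 2.45 and Hcn2 by 2.12. Fhl2, whose protein binds KCNE1, fell by 2.34, and Cacna1c, the L-type calcium channel pore, by 1.53. Irx5, a transcription factor known to set the ventricular gradient of Kcnd2, fell by 1.08, and its relative Irx3 by 1.94. The gene that rose was Dlg4, a scaffold that anchors Kv1 and Kir channels, by 1.69.

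Markers of several cell types moved with the channels. Summed cardiomyocyte markers went from 82922.0 to 85113.7 CPM in sham to between 5725.0 and 9715.9 CPM in MI of the first set, and from 68201.3 to 70198.2 CPM to between 24702.1 and 25157.1 CPM in the second, with 7 of 8 fallen. Their summed log2 change was -3.44 and -1.47. Of the 23 Kcn genes that fell, 6 fell more than that sum in both sets (Kcnv2, Kcnj3, Kcnn2, Kcnip2, Kcnj11 and Kcna7), 11 fell less in both, and 6 were mixed. The sum hides the spread of single markers, the lowest being Tnni3 at -4.62 in the first set and Myl2 at -2.04 in the second. Among those 6 genes, Kcnv2 alone fell beyond the lowest single marker in both sets. Myh7, a cardiomyocyte marker induced in stressed muscle, went against the others in the second set at 3.70. Fibroblast markers rose in 7 of 8 (3255.6 to 3658.4 CPM in sham and 58173.2 to 73815.6 CPM in MI of the first set, 3023.2 to 3176.7 and 27723.7 to 28005.3 CPM in the second). Macrophage markers rose in 7 of 8 too, from 567.8 to 576.7 CPM in sham to 3603.4 to 5351.3 CPM in MI of the first set and from 954.1 to 998.9 CPM to 3341.6 to 3460.0 CPM in the second. T cell markers rose in 2 of 6 tested and summed to at most 22.9 CPM in any library. Endothelial markers fell in 1 of 6, and smooth muscle or pericyte markers rose in 4 of 7 and fell in 1. Beside these marker counts, 29.8% of all genes tested were called lower and 28.1% higher. The part of any of these cell types in the channel results was not tested.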

How the data were processed

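Left ventricle RNA of 6 sham and 6 MI libraries was analysed. Per the labels' protocols, mRNA was enriched with oligo(dT). The deposited table gives expected counts, which are unscaled and fractional, and TPM and FPKM that the authors scaled to transcript total and to length and fragment total. Per the submitters' processing notes, the build was GRCm38, and Bowtie2, RSEM and DESeq2 (no versions) were named for replicates 3 to 6 alone. A second deposited FPKM table, for replicates 1 and 2, held 87 of the Kcn genes, 69 of them within 0.2 log2 of the first table in all 4 libraries.

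Expected counts were rounded and fitted with edgeR 4.0.16 in R 4.3.3 (quasi-likelihood F test, TMM scaling, filterByExpr by group, Benjamini-Hochberg adjustment over all genes) with the set as covariate. The same test was run with replicates 3 to 6 summed to 1 library per group, within each set, and on the interaction of set and group. Levels are TMM-scaled CPM (TPM between genes), and standard errors are the log2 fold change over the square root of F. In total 425 genes blank in replicates 1 and 2, none of them a Kcn gene, were left out of fits using those libraries. Positions came from RefSeq on GRCm38.p6. Count ratios carry exact 95% intervals, which cover counting error only. The scripts were tested on simulated data.

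Every tested member of the 5 main functional groups, every other called member and the 3 most abundant others not called were to be named, with values in every library for called members of at least 5 CPM in a set. Further members are named where signs differ between sets, a neighbour was called or only some fits could test them, chosen after their values were seen. The values of 3 members are not reported here. The members, functional groups, marker lists and tests were chosen with earlier results of these data known. Alternatives were other scalings, filters, tests (DESeq2 1.42.0, limma 3.58.1), covariates, thresholds and libraries left out.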

Additional observations from a re-analysis of the deposited data

Results flagged for a closer look

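A library far from the others of its group was found in 6 of the 58 groups tested, where chance flags about 1 in 20 if the 6 libraries of a group vary alike. They do not, since replicates 1 and 2 had the larger spread (coefficient of variation 0.112 and 0.192, against 0.0293 and 0.0208), so the number of such libraries is not to be read against that rate. Kcnj5 was highest in sham library 1 at 107.6 CPM (others 53.7 to 68.4), Kcnj8 in sham library 2 at 81.8 CPM (others 52.7 to 63.4), and Kcnd3 was lowest in sham library 2 at 8.75 CPM (others 12.2 to 13.2). Kcng2 was highest in MI library 1 at 43.0 CPM (others 26.8 to 29.6). MI library 2 was highest for Kcnk13 at 17.0 CPM (others 5.9 to 8.71) and Kcnn4 at 34.9 CPM (others 5.51 to 13.6). All of these libraries belong to replicates 1 and 2.

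The change with MI differed between the sets for 8 of 55 Kcn genes tested, beside a background of 10.6% of all genes. The difference is given as the log2 fold change of replicates 3 to 6 minus that of replicates 1 and 2. Beside it stand the edgeR adjusted p over 12 libraries and that with replicates 3 to 6 counted once. It was 3.41 for Kcnip2 (1.02e-09 and 0.0141), 3.19 for Kcnj14 (2.39e-06 and 0.0321), 2.48 for Kcnk3 (2.94e-08 and 0.0221), 2.12 for Kcnq1 (5.78e-07 and 0.0236) and 2.01 for Kcnj11 (3.19e-07 and 0.0278). It was -2.17 for Kcnip3 (1.56e-05 and 0.0419), -2.94 for Kcnt2 (1.05e-07 and 0.0259) and -4.03 for Kcnma1 (0.000632 and 0.0462).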

How the results depend on the processing

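The counts of 13 Kcn genes risen and 23 fallen stayed within 1.5 times under every alternative run. They were 15 and 23 with DESeq2, 16 and 20 with limma, 9 and 18 at an adjusted p under 0.01, 9 and 21 with no set in the model, and 10 to 13 and 18 to 24 with each library left out. Scaling by library size alone gave 15 and 20, and over all genes 6269 higher and 2478 lower against 3824 and 4055, with a median log2 shift of 0.42. The replicate numbers do not pair the samples (correlations of deviations -0.045 to 0.053), and a replicate block gave 11 and 21. Of 36 called genes, 26 kept direction and call under every alternative and 0 changed sign. The 8 genes that differed between sets became 35 with the 12-library test alone, and 0 to 20 with a library left out. In replicates 1 and 2 alone Kcnj14 turned to -1.07, Kcnip3 to 0.35 and Kcnj6 to -0.64. Kcnt2 turned to -0.26 in replicates 3 to 6 alone, and the cause of these turns was not tested. Signs also changed under at least 1 alternative for Kcna4 (0.26 in replicates 3 to 6 alone), Kcnh6, Kcnk5, Kcnn3 and Kcnq5 (0.17, 0.13, 0.39 and 0.21 with library size alone), none of which was called. Another 34 genes had too few counts for the 12-library test.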

Other observations

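Among members too rare for the 12-library test, Kcnk15 had 0 counts in sham of both sets and 41 counts in MI of the first set and 14 in MI of the second. In replicates 1 and 2 alone Kcnk15 and Kcnh3 were both higher in MI (edgeR adjusted p 0.0113 and 0.00276). Both passed the filter there through the MI libraries alone. Kcnh3 had 3 counts in sham and 57 in MI of the first set, a depth-scaled ratio of 11.9 (95% exact interval 3.88 to 59.6), and 3 and 11 in the second, a ratio of 1.85 (0.49 to 10.4). Other rare members were lower. In replicates 1 and 2 alone Kcnc4 fell by 5.17 (edgeR adjusted p 0.00236), from 29 counts in sham to 1 in MI. Kcnj4 fell by 1.67 there (adjusted p 0.019) and by 1.83 with replicates 3 to 6 counted once (adjusted p 0.0108). In replicates 3 to 6 alone Kcnt1 fell by 1.46 (adjusted p 0.00178). Kcnj6, which encodes Kir3.2, was at 1.35 ± 0.187 CPM (SD) in sham and 0.879 ± 0.458 CPM in MI of the first set and at 1.06 ± 0.568 and 5.49 ± 0.61 CPM in the second. It was not called (edgeR adjusted p 0.0212 over 12 libraries and 0.632 with replicates 3 to 6 counted once).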
